A study of Mus musculus with 4 samples.

Results

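Osteoclast precursors and osteoclasts of the mouse fracture callus were taken as cells with at least 3 *Mmp9*, 5 *Acp5* and 3 *Atp6v0d2* UMIs (unique molecular identifiers, each counting 1 captured transcript), among cells with at least 4000 UMIs, at least 2000 detected genes and at most 8% mitochondrial UMIs. They numbered 333 of 27874 such cells (1.19%). The members were thus chosen by the measured counts of these 3 transcripts, whose levels are given as a description. The data were 4 single-cell RNA-seq libraries of tibial fracture callus from wild-type C57BL/6J mice that were 3 months old, each made from a pool of calluses, whose number the labels and the methods of the study state differently. The control_4d and control_7d libraries came from mice given vehicle, at 4 and 7 days post fracture (dpf). The RA_4d and RA_7d libraries came from mice injected with K/BxN serum, which transfers an antibody-driven arthritis, at the same time points. With 1 library for each group, differences between conditions had no replicate and were not tested, and all intervals below are 95% intervals for counting error only.

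Osteoclasts are the cells that resorb bone and calcified cartilage. They arise by fusion of precursors of the monocyte lineage under the cytokines M-CSF and RANKL, which act through the receptors encoded by *Csf1r* and *Tnfrsf11a*, with NFATc1 as the leading transcription factor. On bone, a mature osteoclast forms a sealed compartment, acidifies it with a vacuolar proton pump and a chloride channel, and releases cathepsin K to digest collagen. Large multinucleated osteoclasts are often lost in droplet capture, and the number of nuclei per barcode was not measured here.

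The 333 cells were spread unevenly over the libraries. They numbered 101 of 6306 kept cells in control_4d (1.60%, Clopper-Pearson interval 1.31 to 1.94) and 80 of 8203 in control_7d (0.975%, 0.774 to 1.21). In RA_4d they numbered 144 of 4766 (3.02%, 2.55 to 3.55), and RA_7d held 8 of 8599 (0.0930%, 0.0402 to 0.183). The share was highest in RA_4d and lowest in RA_7d, and the 4 intervals did not overlap. The share in RA_4d was 1.89 times that in control_4d (interval of the ratio 1.45 to 2.46), while the share in RA_7d was 0.0954 times that in control_7d (0.0398 to 0.197). From 4 to 7 dpf it went to 0.609 times its value in the control libraries (0.448 to 0.825) and to 0.0308 times in the RA libraries (0.0130 to 0.0623). The ratios with RA_7d were larger when at least 1 *Mmp9*, 2 *Acp5* and 1 *Atp6v0d2* UMIs were required. They were then 0.203 to control_7d (0.124 to 0.321) and 0.0689 to RA_4d (0.0426 to 0.107). Against *Csf1r*-positive cells alone, the osteoclast-lineage cells made up 2.84%, 2.44%, 5.92% and 0.359% in control_4d, control_7d, RA_4d and RA_7d. On this denominator the ratio of 7 to 4 dpf in the control libraries was 0.858 and its interval included 1 (0.632 to 1.16). The interval of this ratio over kept cells also included 1 with upper limits on UMIs and genes (0.713, 0.503 to 1.01). With a looser cell filter it did so too (0.817, 0.617 to 1.08).

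**Figure D1:**
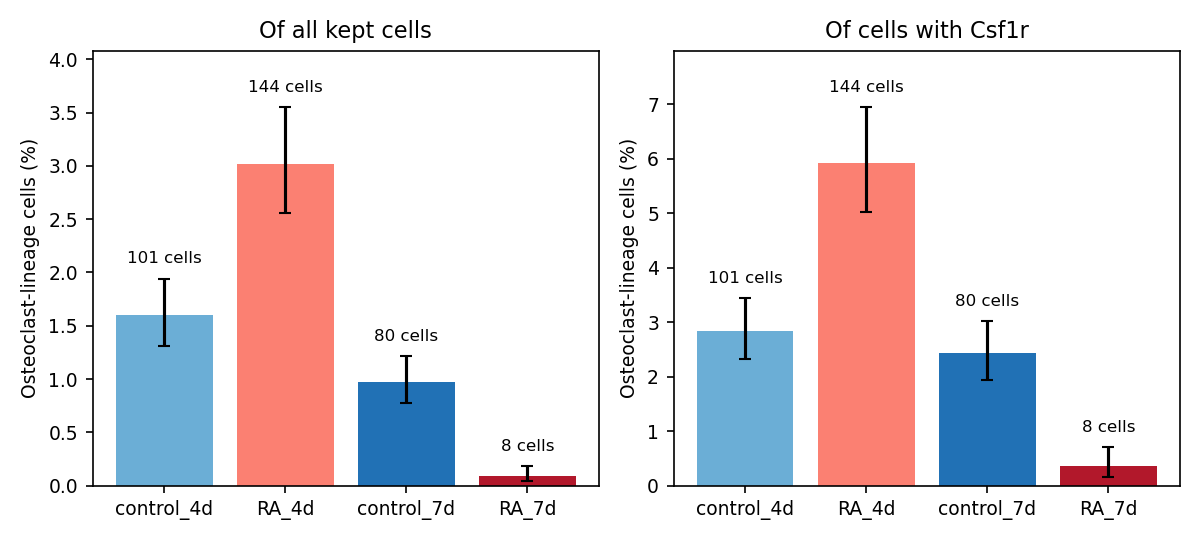
Share of kept cells that were osteoclast precursors or osteoclasts in each library, in percent, with 95% Clopper-Pearson intervals as error bars. RA_4d stands highest at 3.02% and RA_7d lowest at 0.0930%, with 1 library per group.

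The osteoclast-lineage cells held many UMIs. Their median UMI number was 44271 in control_4d and 41549 in RA_4d, and 33721 and 33262.5 in control_7d and RA_7d. The medians of the cells used for comparison, which had at least 1 UMI of *Csf1r* and none of *Mmp9*, were 15564 in control_4d and 15829 in RA_4d, and 12177 and 13619 in control_7d and RA_7d. A total of 84 osteoclast-lineage cells (25.2%) exceeded 50000 UMIs, against 6.50% of all kept cells, and 38 exceeded 7000 genes. Of the 84, 12 were mixed barcodes as defined below, and without mixed barcodes 72 of 313 (23.0%) exceeded this number. The conditions count UMIs, so deep cells meet them more readily and shallow cells more readily have no *Mmp9* UMI, and the part of this in the difference was not tested. By library, 32 cells of control_4d, 11 of control_7d, 39 of RA_4d and 2 of RA_7d lay above 50000 UMIs. The lineage took a larger share of UMIs than of cells, namely 2.86%, 1.70%, 4.98% and 0.171% in control_4d, control_7d, RA_4d and RA_7d. The median mitochondrial share was also higher than in all kept cells, at 3.47%, 4.60%, 3.13% and 4.14% against 2.14%, 2.49%, 2.04% and 2.32%. In control_4d the cells above 50000 UMIs had nearly the *Ctsk* level of the others (6211 against 6144 CPM, the UMIs of a gene over 1000000 UMIs of the summed cells), and 12 of 32 against 17 of 69 were cycling by the measure given below. Other genes differed more. In control_4d, control_7d and RA_4d, *Mmp9* was at 1542 against 2913, 1931 against 3735 and 2654 against 2147 CPM. *Ocstamp* was at 156 against 141, 150 against 265 and 161 against 145 CPM.

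The cutoffs had visible edges. The lowest *Mmp9* count inside was 3, held by 12 cells with a pooled *Ctsk* level of 2776 CPM. Just outside, 22 cells met every other condition with 2 *Mmp9* UMIs, and their *Ctsk* level was 1198 CPM. A total of 402 cells missed the *Mmp9* condition alone, with *Ctsk* at 659 CPM and *Lyz2*, the lysozyme gene of macrophages and neutrophils, at 6720 CPM. Apart from the members, 1034 cells held at least 1 UMI of both *Csf1r* and *Mmp9*, and their *Ctsk* level was 240 CPM. Endothelial cells were taken as kept cells with at least 2 UMIs each of *Cdh5* and *Pecam1* and none of *Csf1r*. Of these, 0 of 3419 passed the 3 conditions, which allows a share of up to 0.0877% when 3 cells are taken as the limit of a count of 0. Cells with a *Csf1r* UMI had been left out beforehand, so the part of free RNA was not tested by this count. The mitochondrial limit mattered in 1 library, since 30 barcodes of control_7d met the 3 transcript conditions but exceeded 8% mitochondrial UMIs, against 2, 2 and 0 in control_4d, RA_4d and RA_7d.

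Some of the 333 barcodes also carried transcripts of another cell type. A total of 20 held over 2000 CPM of a marker list of another lineage, of which control_4d had 1, control_7d and RA_4d 8 each and RA_7d 3, and 14 of them were mixed with mesenchymal transcripts. A doublet caller marked 9 of the 333 cells, of which 8 were among these 20. It marked 0 of the 144 cells of RA_4d, where it marked 0.0420% of all kept cells and so did not work. A further class of 9, 5, 5 and 2 cells in control_4d, control_7d, RA_4d and RA_7d held over 2000 CPM of *Lyz2* or of the monocyte and macrophage genes, and are called macrophage-rich below. They held 76.9%, 77.3%, 48.3% and 99.3% of the *Lyz2* UMIs of the lineage in those libraries. Both classes were defined after the values were seen, and 1 cell of control_7d belonged to both. No cell barcode of the 333 occurred in the lineage of another library.

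The 8 cells of RA_7d were a mixture. Of these, 5 carried *Ocstamp* at 140 to 315 CPM with *Ctsk* at 6030 to 11958 CPM. The others had no *Ocstamp* UMI and *Ctsk* at 662, 1729 and 1138 CPM. A pair of these was macrophage-rich, with *Lyz2* at 7617 and 35850 CPM and *Mmp12*, a macrophage elastase, at 7002 and 14076 CPM. Of the 8 cells, 3 were mixed with mesenchymal or endothelial transcripts, and all 3 were called doublets. RA_7d was therefore left out where libraries were compared gene by gene, and its levels are listed as a description of these 8 cells.

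The markers *Ctsk* and *Ocstamp* had no part in the UMI conditions that chose the cells. They were picked as markers of this cell type with earlier results of these data known. Their levels therefore describe the cells and are no independent check of the label. Cathepsin K, the collagenase of the resorption pit encoded by *Ctsk* (GRCm38 chr3:95499256-95509362, plus strand), stood at 6172 and 8119 CPM in control_4d and control_7d and at 4702 and 7041 CPM in RA_4d and RA_7d. In the comparison cells of the same libraries it stood at 86.1, 149, 73.3 and 254 CPM. All 4 levels in the lineage were above all 4 levels outside it, with a median log2 ratio of 5.87 (1 CPM added). *Ocstamp* (chr2:165393760-165400405, minus strand), a membrane protein needed for fusion of precursors, stood at 147, 239, 151 and 149 CPM against 4.10, 4.50, 6.87 and 2.68 CPM. After each cell was thinned to 4000 UMIs, 35.6%, 47.5% and 37.5% of the lineage in control_4d, control_7d and RA_4d and 4 of 8 cells in RA_7d had an *Ocstamp* UMI, against 0.143%, 0.107%, 0.190% and 0.0796% of endothelial cells. The endothelial cells had been chosen to hold no *Csf1r* UMI. Without thinning these shares were 86.1%, 88.75%, 86.8% and 62.5% in the lineage. The 3' UMI counts need no scaling by transcript length. Both markers were thus present in each library, while most genes of the monocyte and macrophage list were low, as described below. *Lyz2*, counted apart from that list, stood at 785, 513, 187 and 3434 CPM against 6814, 7150, 5010 and 5602 CPM. It was therefore not clearly low in RA_7d, where the macrophage-rich cells held 99.3% of its UMIs.

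The rule set the lineage against the comparison cells, so the following gene levels describe the chosen cells and were not tested. Among 17276 genes, 432 (2.50%) had a log2 ratio of at least 1 in each of the 4 libraries and 1534 (8.88%) a ratio of at most −1, and the median over all genes was −0.33. With 10 CPM added in place of 1, the counts were 262 higher and 536 lower, and with comparison cells of at least 4 *Csf1r* UMIs, 483 higher and 1004 lower. Genes that were higher made up 22.0% of those past a limit, and 32.8% and 32.5% under these choices, which placed the median of all genes at −0.08 and −0.22. Below, "higher" and "lower" are used for genes past these limits in each library. For ratios to the comparison cells without mixed barcodes or without macrophage-rich cells, no share over all genes is given beside the counts. Where ratios to the comparison cells are given without mixed barcodes, these were left out on both sides, the comparison cells included. A change under this choice therefore cannot be credited to the mixed members alone. The comparison cells held 8762, 14491, 6119 and 30264 CPM of 10 mesenchymal genes in control_4d, control_7d, RA_4d and RA_7d, against 2727, 5834, 898 and 7549 CPM in endothelial cells. A minority of the comparison cells held most of this, since their medians over cells were 303, 765, 159 and 1034 CPM, and with at least 4 *Csf1r* UMIs the pooled levels were 2569, 6230, 1785 and 11989 CPM. Where comparison cells had to reach the lower quartile of the UMIs of the lineage, called comparison cells of like depth below, 439 of 15492 genes (2.83%) were higher and 2148 (13.9%) lower, and 1097 of the 1534 lower genes stayed lower.

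Of the genes that chose the cells, *Acp5*, which encodes tartrate-resistant acid phosphatase, stood at 3200, 4684, 2730 and 2694 CPM in control_4d, control_7d, RA_4d and RA_7d. *Mmp9*, a gelatinase, stood at 2329, 3328, 2353 and 2284 CPM, and *Atp6v0d2*, a subunit of the proton pump that also serves fusion, at 842, 939, 678 and 704 CPM. These values are set by the choice of cells.

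Promoter sequence is shown for *Acp5* and *Oscar*, since both are textbook targets of NFATc1 and hold the letters searched for. The 250 bases before a RefSeq start were read on GRCm38.p6 for the 11 of 20 looked-up genes that the table held, and TGGAAA, the core of an NFAT site, and TCATGTG, an MITF type of E box, were searched on both strands. TGGAAA contains the GGAA core of ETS factors, so the motifs overlap. Capitals mark a match, which on the shown strand may read TTTCCA or CACATGA.
*Acp5*, chr9:22130599-22130848, minus strand: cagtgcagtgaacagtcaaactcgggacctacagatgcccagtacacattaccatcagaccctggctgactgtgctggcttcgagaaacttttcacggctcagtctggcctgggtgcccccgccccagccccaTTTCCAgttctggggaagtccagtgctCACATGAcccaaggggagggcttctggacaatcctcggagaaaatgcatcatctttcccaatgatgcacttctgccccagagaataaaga
*Oscar*, chr7:3616158-3616407, minus strand: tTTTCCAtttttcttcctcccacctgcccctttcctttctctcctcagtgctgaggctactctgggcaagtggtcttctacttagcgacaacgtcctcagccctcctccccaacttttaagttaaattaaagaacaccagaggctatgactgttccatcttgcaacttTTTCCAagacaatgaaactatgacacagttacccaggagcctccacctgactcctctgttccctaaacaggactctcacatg
In *Acp5* the matches started 117 bases (NFAT type) and 90 bases (MITF type) before the start of this transcript, and in *Oscar* NFAT-type matches started 249 and 82 bases before it. The 11 genes had 18 windows, as some have several starts. TGGAAA or its complement was held by 3 of the 18 windows (1 each of *Acp5*, *Oscar* and *Clcn7*), beside 18.6% of all 32851 windows and 20.9% of 27025 genes. TCATGTG or its complement was held by 2 of the 18 (*Acp5* and *Clcn7*), beside 3.25% of windows and 3.72% of genes. A match describes letters and is not a measured binding site.

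Receptors and their regulators came next. *Csf1r*, the M-CSF receptor, was at 463, 470, 409 and 337 CPM in control_4d, control_7d, RA_4d and RA_7d. Its median log2 ratio was 0.33, and it had no fixed direction, at 1.88 against comparison cells of like depth and −0.24 against those with at least 4 *Csf1r* UMIs, a choice that uses the gene itself. *Tnfrsf11a*, the receptor for RANKL, was at 208, 228, 202 and 149 CPM, a median log2 ratio of 1.25. It was 0.82 and short of the limit without mixed barcodes on either side. *Oscar*, a collagen-binding receptor that signals through Fc receptor gamma chain, was at 15.8, 50.5, 21.8 and 29.7 CPM and at most at 0.335 CPM in the comparison cells. *Trem2* had a median of −1.22, and of 0.37 against comparison cells of like depth. *Itgb3*, the beta 3 integrin of the sealing zone, was at 57.4, 104, 26.7 and 33.1 CPM (median 2.55) but fell short of the limit in RA_7d. Low levels were held by *Calcr* and *Siglec15*. The calcitonin receptor *Calcr* was at 0.213, 3.11 and 1.11 CPM and had no UMI in RA_7d, and *Siglec15* lay between 2.07 and 6.61 CPM. Without thinning, 11.9%, 12.5%, 7.64% and 25% of the lineage had a *Siglec15* UMI, against 0.220%, 0.170%, 0.0513% and 0.0483% of comparison cells. Over the receptor list, 3 of 21 genes were higher and 4 lower, against 2.50% and 8.88% of all genes. Against comparison cells of like depth, 7 of 19 were higher and 2 lower, and without macrophage-rich cells 3 of 21 were higher and 6 lower, so the balance of this list was not fixed.

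Among transcription regulators, *Nfatc1* stood at 586, 620, 607 and 304 CPM against 65.3 to 75.4 CPM in the comparison cells. All 4 levels lay above each comparison level, and the pair of macrophage-rich cells of RA_7d had no *Nfatc1* UMI. *Jdp2*, an AP-1 family member needed for osteoclast formation, was at 701, 617, 767 and 357 CPM, a median log2 ratio of 2.99. *Irf8*, a repressor of the osteoclast fate, was at 10.7, 5.88, 8.11 and 3.31 CPM against 83.0 to 105 CPM. *Bcl6* had a median log2 ratio of −1.81. *Id1* had one of −2.56, and it was not past the limit in each library with 10 CPM added or with TMM scaling. *Mitf* had a median log2 ratio of −0.59, and of 0.38 against comparison cells of like depth, and *Fos* was at 0.29. In total 3 of the 23 regulators tested were higher and 4 lower, beside 2.50% and 8.88% of all genes.

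Of the fusion genes, *Dcstamp*, the partner of *Ocstamp*, was at 120, 135, 78.5 and 119 CPM against 3.17 to 6.61 CPM. Apart from *Atp6v0d2*, 3 of 13 fusion genes were higher and 2 lower, beside 2.50% and 8.88% of all genes. The median of these 13 was −0.56, beside −0.33 for all genes. Without mixed barcodes on either side 5 were higher and 2 lower.

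In the acid-secretion machinery, 12 of 22 genes apart from *Atp6v0d2* were higher and 0 lower, beside 2.50% and 8.88% of all genes. The median log2 ratio of these 22 was 1.47. Without the 8 cells of RA_7d, 12 were higher and 1 lower. *Car2*, the carbonic anhydrase that supplies protons, was at 96.4, 105, 80.9 and 76.0 CPM against 2.25 to 3.99 CPM. The chloride and bicarbonate exchanger gene *Slc4a2* had a median log2 ratio of 2.31 and *Snx10*, a sorting nexin whose loss causes osteopetrosis, of 2.71. *Atp6v0c*, the membrane ring of the pump, was at 2771, 3201, 2323 and 2681 CPM (median 1.85). *Tcirg1*, the a3 subunit of the pump, had a median of 1.51, and of 1.09 and short of the limit without mixed barcodes on either side. *Clcn7*, its chloride partner, was below the limit in at least 1 library at a median of 1.14, and *Ostm1*, the partner of *Clcn7*, at 0.56.

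Of the genes of mitochondrial biogenesis and iron uptake, 11 of 16 were higher and 0 lower, beside 2.50% and 8.88% of all genes. The median of these 16 was 1.56. *Tfrc*, the transferrin receptor, stood at 417, 476, 516 and 694 CPM against 29.9 to 62.1 CPM. *Ppargc1b*, a coactivator of mitochondrial genes, was at 118, 149, 117 and 99.2 CPM against 7.41 to 9.51 CPM. *Idh3a* of the citric acid cycle had a median of 2.46 and cytochrome c (*Cycs*) of 2.03. The mitochondrial share of UMIs was higher in the same cells, as given above, and its part in these ratios was not tested.

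In the list of the sealing zone and cytoskeleton, 5 of 21 genes were higher and 2 lower, beside 2.50% and 8.88% of all genes. Without mixed barcodes on either side, 7 were higher and 0 lower. *Src*, the kinase without which no ruffled border forms, was at 113, 115, 134 and 85.9 CPM against 11.3 to 15.2 CPM. *Ckb*, the brain-type creatine kinase, was at 1221, 1814, 693 and 1411 CPM. It was counted as higher both in this list and in that of mitochondrial biogenesis and iron uptake. *Pstpip1*, *Dock5* and *Rac2*, which act on actin, had medians of 2.69, 2.15 and 1.56. Without mixed barcodes on either side *Rac2* was at 1.20 and short of the limit.

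Proteases differed among themselves. Apart from *Mmp9* and *Acp5*, 1 of 11 genes of the protease list, *Ctsk*, was higher and 4 were lower, beside 2.50% and 8.88% of all genes. Under the 9 alternatives to the choice of cells and scaling, 1 to 6 were lower. The lysosomal *Ctsb* was at 803, 718, 617 and 1226 CPM against 2511 to 3557 CPM and *Ctss*, which serves antigen presentation, had a median of −2.50. Against comparison cells of like depth, *Ctsb* was at −0.57 and *Ctss* at −0.50, both short of the limit. Of the secreted factors that link resorption to bone formation, 2 of 26 were higher and 9 lower, beside 2.50% and 8.88% of all genes. Those higher were *Spns2*, the exporter of sphingosine 1-phosphate (median 2.44), and *Pdgfb*, which recruits vessels (median 1.74). Among those lower were *Ccl6* at −4.46, *Igf1* at −3.62 and *Bmp6* at −3.46. The balance depended on the cells, with 4 of 25 higher and 5 lower without mixed barcodes on either side. Against comparison cells with at least 4 *Csf1r* UMIs, 5 were higher and 4 lower. Without mixed barcodes on either side *Spns2* was at 3.88 and *Bmp6* at −1.20, the latter short of the limit.

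The macrophage programme was low. Of 22 monocyte and macrophage genes, 20 were lower and 0 higher, beside 8.88% and 2.50% of all genes. The median of these 22 was −3.80. The mannose receptor *Mrc1* was at 22.2, 8.30 and 5.24 CPM in control_4d, control_7d and RA_4d and had no UMI in RA_7d, against 463 to 648 CPM. *Adgre1* (F4/80), *Fcgr1*, *Ccr2* and *C1qa* had medians of −4.83, −5.52, −5.29 and −4.83. *Cd68*, a lysosomal protein shared with osteoclasts, was the most abundant gene of the list, at 459, 534, 342 and 410 CPM, with a median of 0.47 that became −0.05 against comparison cells with at least 4 *Csf1r* UMIs. Against comparison cells of like depth, 16 of 21 genes tested were lower and 1 higher. The summed list came to 899, 903, 663 and 701 CPM against 6240 to 6972 CPM. In antigen presentation 10 of 12 genes were lower and 0 higher, beside the same shares of all genes. *Cd74* was at 186, 286, 152 and 152 CPM against 1507 to 2344 CPM. Against comparison cells of like depth, 3 of the 12 were lower and *Cd74* went from −3.32 to −1.09, no longer past the limit in each library. Of the 22 genes of arthritic inflammation 8 were lower and 0 higher, again beside 8.88% and 2.50% of all genes. Without macrophage-rich cells, 13 of this list were lower. *Ccl4* stood at a median of −5.80 in this contrast, and *Nfkbia*, an NF-kB inhibitor, led the list at 447, 468, 501 and 621 CPM.

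Outside the lists, the 10 genes with the highest median log2 ratio and at least 50 CPM in each library were *Mt3* (6.07), *Slc9b2* (5.45), *Chchd10*, *Coq8a* (4.96), *Cyp2s1* (4.88), *Kbtbd11* (4.29), *Nudt22* (3.96), *Bdh2* (3.88), *Akap6* (3.84) and *Plxna4* (3.55). *Slc9b2*, a sodium and proton antiporter of osteoclasts, stood at 365, 405, 272 and 327 CPM against 2.95 to 9.70 CPM. *Mt3*, a metallothionein that binds zinc and copper, stood at 112, 351, 111 and 95.9 CPM against 0.541 to 1.17 CPM. Without mixed barcodes on either side it was not past the limit in each library, though its median stayed above 0. In RA_7d its UMIs lay in 2 of 8 cells, so the lost call does not show that mixed barcodes carried its level. *Chchd10* and *Coq8a* encode mitochondrial proteins.

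**Figure D2:**
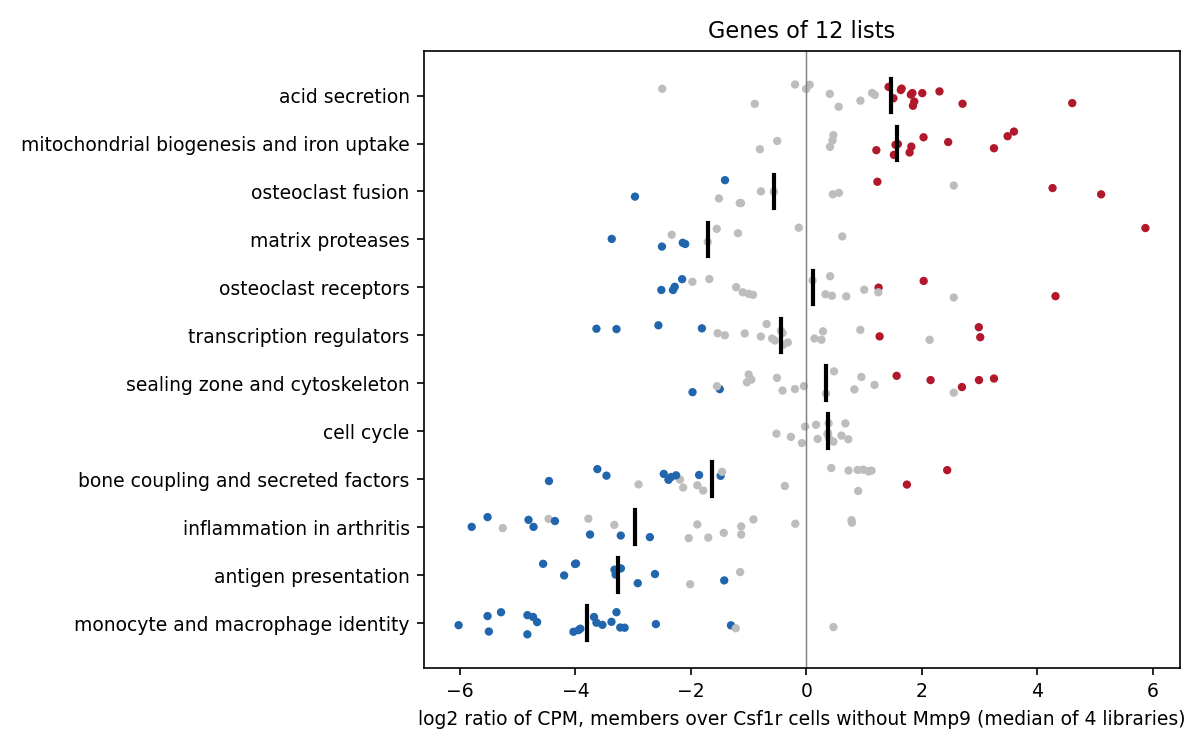
Median log2 ratio over the 4 libraries of each tested gene (points) in the gene lists, osteoclast-lineage cells over comparison cells, without the 3 genes that chose the cells. Red points are higher and blue points lower in each library, gray points neither, and black bars are list medians, which lie at 1.47 for acid secretion and −3.80 for monocyte and macrophage genes.

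The marker lists of other cell types were summed with and without the 20 mixed barcodes. These lists also define the mixed barcodes, so lower sums without them follow in part from that choice. The 10 mesenchymal genes summed to 166, 1985, 2621 and 12085 CPM in control_4d, control_7d, RA_4d and RA_7d with them and to 163, 330, 94.5 and 476 CPM without them. The most abundant was *Col3a1* in control_4d and RA_7d and *Col1a1* in the other 2 libraries, and none of the 10 was at 0. The 12 neutrophil genes summed to 18.1, 499, 78.5 and 69.4 CPM over all members, led by *S100a8*, and 4, 2, 1 and 8 of them were at 0. Without the mixed barcodes control_7d came to 33.8 CPM, as 1 barcode held 43741 CPM of the list, and RA_7d, then 5 cells, to 131 CPM. The 8 endothelial genes summed to 70.4, 63.0, 74.1 and 393 CPM over all members and to 15.1, 31.9, 20.7 and 0 CPM without mixed barcodes. The muscle and Schwann genes went from 7.68, 132.5, 24.8 and 9.92 CPM to at most 8.17 CPM. The 12 osteoblast and chondrocyte genes summed to 29.2 to 89.2 CPM over all members, with *Runx2* as the leading gene in each library, and to 23.8 to 62.1 CPM without mixed barcodes. The B, mast and erythroid genes summed to 43.3, 125, 8.74 and 95.9 CPM over all members and the 8 T and NK genes to 6.40, 2.42, 1.59 and 43.0 CPM. In RA_7d these 2 lists were higher without mixed barcodes, at 131 and 89.7 CPM.

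Within the lineage, *Ctsk* varied from cell to cell. Its median over cells was 5750 and 8564 CPM in control_4d and control_7d and 3823 and 6307 CPM in RA_4d and RA_7d, and the highest cell of each library reached 15895, 17035, 24143 and 11958 CPM. The 10th to 90th percentiles ran from 249 to 11339 CPM in control_4d, from 2044 to 14121 in control_7d and from 355 to 10417 in RA_4d. To describe what varied along with it, the cells of each library with enough members were divided at the median, a range of levels and not a type. Within 10% of the median lay 8, 5 and 10 cells of control_4d, control_7d and RA_4d.

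Single genes of several lists were higher in the upper part. The upper part was past a log2 ratio of 1 in 3 of 11, 3 of 11 and 3 of 13 fusion genes and in 5 of 18, 3 of 17 and 5 of 19 sealing-zone genes of control_4d, control_7d and RA_4d, beside 1.76%, 2.14% and 1.95% of all genes. A ratio of at most −1 was held by 1, 1 and 2 fusion genes and 0, 0 and 1 sealing-zone genes, beside 7.31%, 5.92% and 9.65% of all genes. In control_4d, control_7d and RA_4d, the log2 ratio of the upper over the lower part was 1.71, 1.46 and 1.62 for *Ocstamp*, 2.16, 1.55 and 1.46 for *Dcstamp*, and 3.57, 2.27 and 2.78 for *Itgb3*. It was 2.56, 1.93 and 2.35 for *Ckb*, 1.55, 1.42 and 1.80 for *Car2*, and 2.23, 1.88 and 4.31 for *Oscar*. *Csf1r* was at 0.45, 0.48 and 0.76, *Nfatc1* at 0.55, 0.61 and 0.41, *Tnfrsf11a* at 0.10, −0.01 and 0.40, *Jdp2* at 0.12, −0.05 and 0.10, and *Src* at 0.23, 0.39 and 0.21. The cell-cycle genes *Mki67*, a proliferation marker, and *Top2a*, a topoisomerase of dividing cells, were lower in the upper part, at −2.39, −4.44 and −1.94 and at −2.41, −3.97 and −2.42.

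Cells with over 1000 CPM of 14 cell-cycle genes, called cycling here, numbered 27 in the lower against 2 in the upper part of control_4d, 6 against 0 in control_7d and 28 against 10 in RA_4d. The mitochondrial share was higher in the upper part, with medians of 4.39% against 2.95%, 5.52% against 3.77% and 3.76% against 2.74% in control_4d, control_7d and RA_4d. Mixed barcodes lay mainly in the lower part, with 1 against 0, 7 against 1 and 7 against 1, and of the macrophage-rich cells 8, 4 and 1 lay in the lower and 1, 1 and 4 in the upper part. *Lyz2* was at −3.59, −2.20 and 0.25. Without both classes it was at −2.27 in control_4d and 0.17 in control_7d and was lower in RA_4d too, so its direction in control_7d and RA_4d changed with these cells. Without both classes and with the median taken again, *Ocstamp* was between 1.03 and 1.55, *Itgb3* at 3.87, 2.26 and 3.66, *Ckb* at 2.40, 1.73 and 2.28 and *Top2a* at −2.40, −3.91 and −2.31. *Car2* was then at 1.35, 0.74 and 1.67. The cells were divided on a gene measured in the same cells, so these ratios carry no test.

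**Figure D3:**
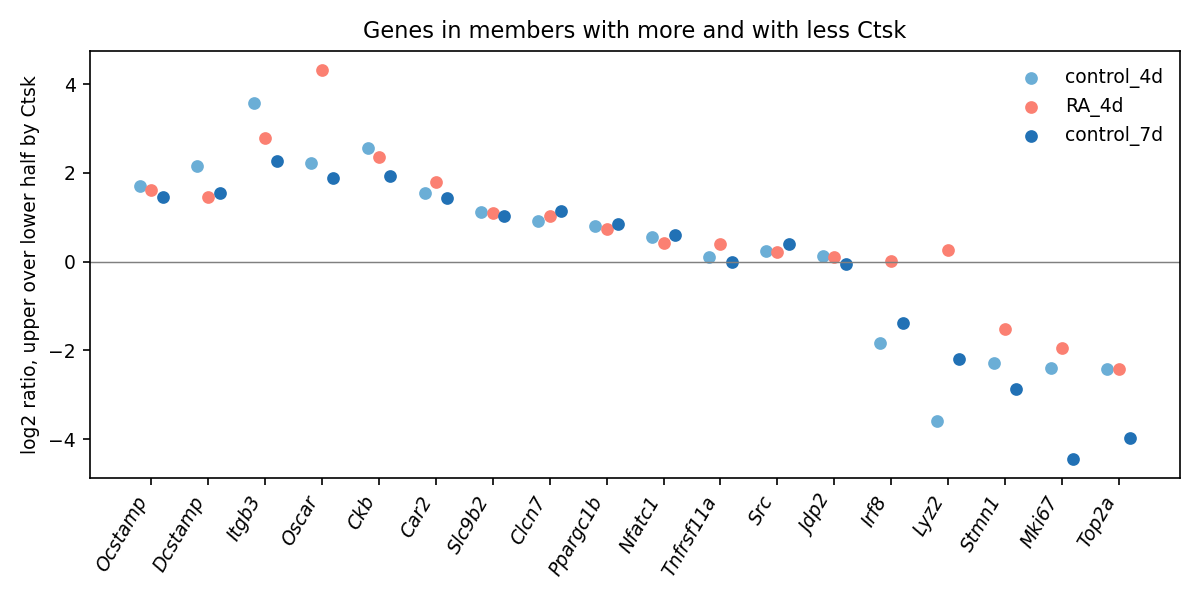
Log2 ratio of gene levels, cells above over cells below the library's median *Ctsk* level, for control_4d, control_7d and RA_4d. *Itgb3*, *Ckb* and *Dcstamp* lie above 1 in all 3 libraries, *Nfatc1*, *Jdp2* and *Src* between −0.05 and 0.61, and *Mki67* and *Top2a* below −1.

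The lineage held many cycling cells at 4 dpf. The share was 28.7% in control_4d (29 of 101, Clopper-Pearson interval 20.1 to 38.6), 7.50% in control_7d (6 of 80, 2.80 to 15.6) and 26.4% in RA_4d (38 of 144, 19.4 to 34.4), with 0 of 8 in RA_7d, an interval that reaches 36.9%. In the comparison cells it was 8.62%, 5.07%, 11.3% and 2.66%. The level near the 1000 CPM limit (750 to 1250 CPM) was held by 4, 1, 14 and 0 cells. With each cell thinned to 4000 UMIs and at least 4 UMIs of these genes required, the shares were 27.7%, 7.50%, 31.25% and 0%, against 10.1%, 6.77%, 13.7% and 3.82% in the comparison cells. Thinned shares with a *Top2a* UMI were 25.7%, 6.25% and 26.4% in control_4d, control_7d and RA_4d, against 11.7%, 11.1% and 14.8% of endothelial cells, which also divide. The interval of the share in control_7d (2.06 to 13.99) included the share of endothelial cells. Against the comparison cells, none of the 14 cell-cycle genes was higher or lower in each library, and 0 were without RA_7d. A call in each library also needs the libraries of 7 dpf, so this count does not speak on 4 dpf alone. Without mixed barcodes on either side 1 of the 14 was higher.

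At 4 dpf, the lineage of RA_4d was compared with that of control_4d over 9659 genes. A log2 ratio of at least 1 was met by 396 genes (4.10%) and of at most −1 by 61 (0.632%). Without mixed barcodes the counts over 9115 genes were 44 (0.483%) and 68 (0.746%). When genes below 50 CPM in both libraries were set aside, the highest ratios belonged to *Sfrp2*, *Col1a1*, *Serping1*, *Col1a2* and *Meg3*, genes of fibroblasts and bone-forming cells. *Col1a1* was at 866 CPM in RA_4d and 41.0 CPM in control_4d, and at 27.3 and 40.8 CPM without the mixed barcodes. All 10 mesenchymal genes were past the limit with these barcodes and 5 had enough UMIs without them, of which 0 were higher and 1, *Col3a1*, was lower (−1.05), with a median of −0.73. The higher levels thus lay in the mixed barcodes of RA_4d, of which 7 of 8 were mixed by these mesenchymal genes. The same genes define such barcodes, so a fall on leaving them out was fixed beforehand.

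The lowest ratios on the same condition belonged to *Lyz2*, *Pf4*, *Tmem26*, *Ifi27l2a* and *Gpnmb*. *Lyz2* stood at 187 CPM in RA_4d and 785 in control_4d, a log2 ratio of −2.07, and at −0.97 without the macrophage-rich cells. *Pf4*, a chemokine, went from −1.76 to −0.85 in the same way. *Spp1* (osteopontin) was at −1.25 with and −0.30 without these cells, and the complement gene *C1qa* at −1.20 with and 0.30 without them. *Gpnmb*, a lysosomal glycoprotein also called osteoactivin, was at −1.40 with and −1.36 without them, and *Tmem26* at −1.50 and −1.59. *Ifi27l2a*, an interferon-response gene, was at −1.40 and −1.09.

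*Itgb3* was among the osteoclast genes that passed the limit. The fusion, receptor and sealing-zone lists each had 1 gene higher and 1 lower, of 13, 18 and 19. Without mixed barcodes each had 0 higher and 1 lower. The list of mitochondrial biogenesis and iron uptake had 1 of 15 genes higher with and without them. *Itgb3* was at 26.7 CPM in RA_4d and 57.4 in control_4d, 0.465 times the control level (interval 0.381 to 0.566). Without macrophage-rich cells it was 0.416 times (0.338 to 0.509). A UMI was found in 48 of 144 cells of RA_4d and 38 of 101 of control_4d, and 1 cell held 17.5% of the UMIs in control_4d. Without the cell with most *Itgb3* UMIs in each library the log2 ratio was −0.91, short of the limit. *Ckb* was at 693 and 1221 CPM (log2 −0.82), *Dcstamp* at 78.5 and 120 CPM (−0.60) and *Ctsk* at 4702 and 6172 CPM (−0.39), none of which passed the limit of 1. *Nfatc1* was at 0.05, *Ocstamp* at 0.04, *Mt3* at −0.01 and *Tfrc* at 0.31. *Mt3* was at 0.45 without macrophage-rich cells and at 0.26 without the cell with most of its UMIs in each library. Of the acid-secretion list 0 of 23 genes passed the limit either way, and 8 of 23 were above 0 without mixed barcodes (median −0.08), beside 4705 of 9115 genes overall (median 0.01). Without macrophage-rich cells 3 of 23 were above 0 (median −0.14), beside 5258 of 9513 genes overall (median 0.03). The 23 include *Atp6v0d2*, whose counts were used to choose the cells. The monocyte and macrophage list had 2 of 17 genes higher and 6 lower, beside 4.10% and 0.632% of all genes. Without macrophage-rich cells it had 2 of 12 higher and 0 lower, beside 4.34% and 0.452% of all genes, and without mixed barcodes 1 of 16 higher and 6 lower. Both neutrophil genes with enough UMIs were higher in RA_4d without mixed barcodes, *S100a8* at 32.8 against 9.82 CPM (log2 1.64) and *S100a9* at 30.1 against 3.93 CPM (2.66). The comparison cells of RA_4d also held more of the neutrophil list, 5372 against 218 CPM, and the part of free RNA was not tested. With genes below 50 CPM in both libraries set aside, the highest ratios without mixed barcodes were those of *Mir99ahg*, a long noncoding RNA, at 1.41, *Gm47283* at 1.17 and *Mid1*, a microtubule-associated ubiquitin ligase, at 1.14. *Gm47283* had a UMI in 98 of 101 cells of control_4d and 140 of 144 of RA_4d.

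From 4 to 7 dpf in the control libraries, 191 of 8730 genes (2.19%) had a ratio of at least 1 and 175 (2.00%) of at most −1. Without mixed barcodes the counts over 8404 genes were 69 (0.821%) and 186 (2.21%). Among the highest ratios were those of *S100a9*, *Mest*, *Mgp* and *S100a8*, genes of other cell types. *S100a8*, a calcium-binding protein of neutrophils, went from 4.34 to 1.10 without mixed barcodes.

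The cell cycle was lower at 7 dpf. Of its 14 genes, 11 had a log2 ratio of at most −1 and 0 of at least 1, with a median of −1.31, and without mixed barcodes 10 did. *Top2a* was at 66.4 CPM in control_7d and 190 in control_4d (−1.50) and *Mki67* at 34.6 and 108 CPM (−1.62). With genes below 50 CPM in both libraries set aside, the linker histone gene *Hist1h1b* had the lowest ratio at −2.30, followed by *Pf4* at −2.15 and *Ccnb1ip1* at −1.74. *Pf4* was at −1.16 without macrophage-rich cells.

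*Oscar*, *Mt3* and *Steap4* passed the limit at 7 dpf. *Oscar* was at 50.5 CPM in control_7d and 15.8 in control_4d (1.62), with a UMI in 46 of 80 cells against 29 of 101. *Mt3* was at 351 and 112 CPM (1.64), with a UMI in 47 of 80 against 32 of 101 cells. A single cell held 35.7% of the *Mt3* UMIs of control_4d, and the ratio was 2.08 without the top cell of each library and 2.23 without macrophage-rich cells. *Steap4*, a metalloreductase of iron and copper uptake, reached 2.46, with a UMI in 39 of 80 against 18 of 101 cells, and was at 1.63 in RA_4d over control_4d. *Itgb3* was at 0.85, *Clcn7* at 0.86, *Ocstamp* at 0.69, *Ckb* at 0.57, *Acp5* at 0.55 and *Ctsk* at 0.40, all short of the limit. Of the 22 acid-secretion genes tested without mixed barcodes 21 lay above 0, with a median of 0.24, beside 3628 of 8404 genes overall and a median of −0.05. The 21 include *Atp6v0d2*, whose counts were used to choose the cells. *Cxcl2* and *Cxcl3*, neutrophil-attracting chemokines, were high in control_7d through 1 cell, which held 90.9% and 100% of their UMIs, and *Cxcl2* was at 0.36 without macrophage-rich cells. Both comparisons used control_4d, so its values enter both.

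**Figure D4:**
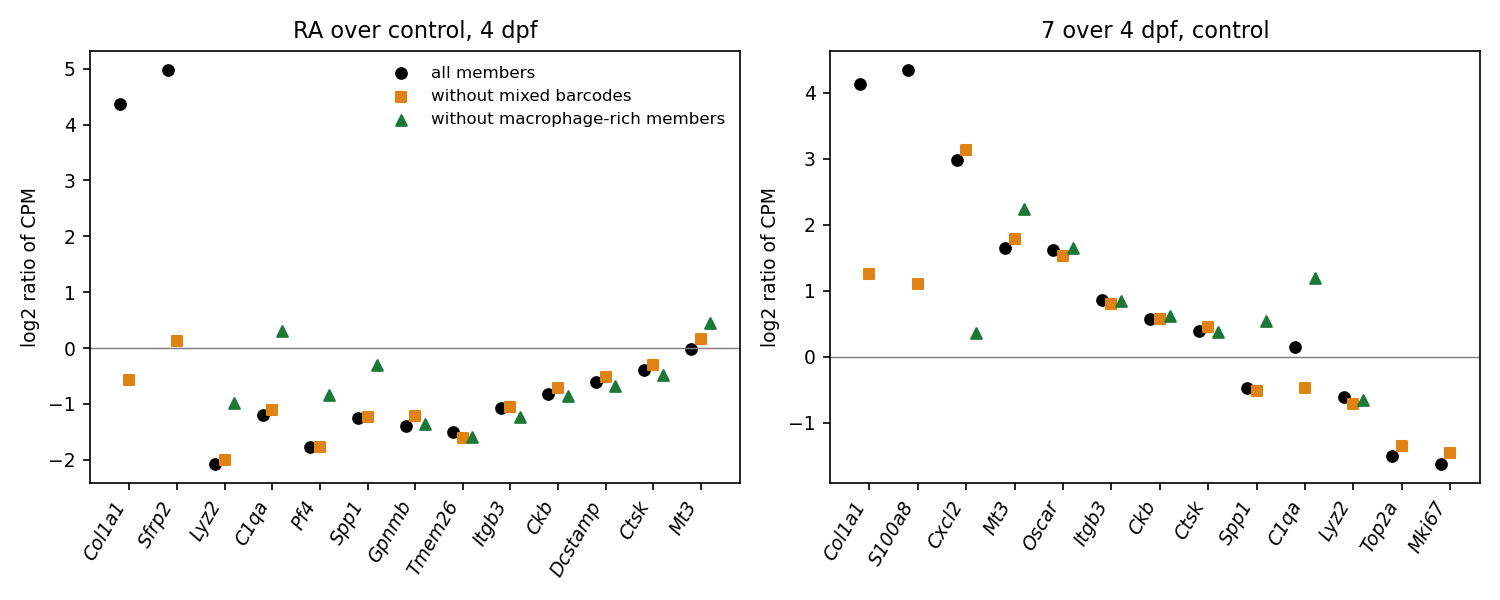
Log2 ratios of gene levels in the lineage, RA_4d over control_4d and control_7d over control_4d, for all cells (black), without mixed barcodes (orange) and without macrophage-rich cells (green). *Itgb3* lies between −1.05 and −1.23 in the first comparison on these 3 choices of cells, while *Col1a1* and *Lyz2* move with the barcodes left out.

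Ligands for the lineage were measured in the other kept cells. *Tnfsf11*, which encodes RANKL, was at 13.0, 20.8, 23.6 and 15.97 CPM in control_4d, control_7d, RA_4d and RA_7d, and its decoy receptor *Tnfrsf11b* (osteoprotegerin) at 4.26, 12.3, 2.51 and 9.03 CPM. *Csf1* stood at 56.9, 41.7, 64.4 and 55.9 CPM and *Il34*, another ligand of the M-CSF receptor, at 5.94, 8.33, 7.64 and 11.5 CPM. With 4 libraries no relation across libraries was computed.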

How the data were processed

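Cells of 4 libraries of fracture callus, made with the Chromium 3' v3.1 kit from 10000 loaded cells each, were analysed. The deposited files hold raw UMI counts of 32285 genes, which the authors made with Cell Ranger 7.0.1 on mm10, for 34038 barcodes (7630, 10206, 5896 and 10306 in control_4d, control_7d, RA_4d and RA_7d, with 168210361, 177131833, 130168130 and 182259646 UMIs). UMIs were summed over the cells of a class and library and divided by their total (CPM), and log2 ratios had 1 CPM added. Genes needed 50 UMIs over the groups compared. Levels and shares had exact Poisson and Clopper-Pearson intervals, and ratios exact conditional intervals (SciPy 1.17.1). The log2 ratios, TMM scaling and the intervals of ratios were checked on simulated summed counts. These had no spread between cells, so the check does not cover genes whose UMIs lie in few cells. The intervals of levels and shares were not checked in this way. Differential expression was not tested, since each group had 1 library. Doublets were called with Scrublet (scanpy 1.11.5), which marked 0.0420% of the kept cells of RA_4d and so did not work there. They were kept, and an alternative left them out.

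Genes were named from 20 gene lists (up to 8 of each by size of ratio, and all regulators, receptors and fusion genes) and, outside them, as the 10 highest ratios or, between libraries, the 5 highest and lowest among genes with at least 50 CPM. The condition of the same direction at the other time point could not be applied, since RA_7d had 8 cells. Genes outside this rule (*Lyz2* of the cells at the edges, *Mmp12*, *Steap4*, *Mir99ahg*, *Gm47283*, *Mid1*, *Cxcl2* and *Cxcl3*) were named after their values were seen. The members and lists were chosen with earlier results of these data known. Promoter sequences came from RefSeq (GRCm38.p6) and gene positions from GENCODE. Some genes that the rule names are not reported here.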

Additional observations from a re-analysis of the deposited data

Results flagged for a closer look

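The ratio of RA to control in the share of osteoclast-lineage cells stood out because it lay on opposite sides of 1 at the 2 time points, 1.89 at 4 dpf and 0.0954 at 7 dpf. The difference between the time points was not tested, since each ratio compares 1 library with 1 library. The ratio at 7 dpf was 0.203 with the looser transcript conditions. It rests on 8 cells of RA_7d, of which 3 were mixed barcodes and 2 macrophage-rich. The second item lies outside the kept cells. In control_7d, 32 barcodes met the 3 transcript conditions and failed the cell filter, 30 of them by the mitochondrial limit, against 2, 2 and 0 barcodes in control_4d, RA_4d and RA_7d.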

How the results depend on the processing

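No paired analysis was possible because each group had 1 library and no test was run. For the share of osteoclast-lineage cells, 33 of 36 alternative ratios stayed within counting error of those reported. With the looser transcript conditions RA_7d over control_7d came to 0.203 and RA_7d over RA_4d to 0.0689, and over *Csf1r*-positive cells that of 7 to 4 dpf in the controls was 0.858. The last ratio also had an interval that included 1 with upper limits on UMIs and genes (0.713, 0.503 to 1.01) and with the looser cell filter (0.817, 0.617 to 1.08). Of the counts of genes, 36 lay within 1.5 times the reported count and 16 did not. With 10 CPM added, 262 genes were higher and 536 lower than in the comparison cells, 169 and 16 between RA_4d and control_4d, and 114 and 34 between control_7d and control_4d. Comparison cells with at least 4 *Csf1r* UMIs gave 1004 lower genes. Higher genes among calls made up 22.0% in the report, 32.8% with 10 CPM added and 32.5% with these comparison cells. RA_4d over control_4d gave 38 higher genes with upper limits, 44 without mixed barcodes, and 869 higher and 191 lower with at least 10 UMIs. Control_7d over control_4d gave 97 higher genes with upper limits, 87 without doublets, 69 without mixed barcodes, and 652 higher and 424 lower with at least 10 UMIs. Without RA_7d, 536 genes were higher and 2221 lower than in the comparison cells. Without thinning, the shares with an *Ocstamp* UMI were 86.1%, 88.75% and 86.8% and with a *Top2a* UMI 43.6%, 31.25% and 42.4% in control_4d, control_7d and RA_4d. For the median log2 ratios of 60 named genes against the comparison cells, 401 values stayed within 1 SD of the 4 libraries' ratios under 9 alternatives, 138 moved further and 1, that of *Trem2*, reversed. The sign changed in 5 values. These were *Mitf* (0.38) and *Trem2* (0.37) with comparison cells of like depth, and *Csf1r* without mixed members and mixed comparison cells (−0.08). The others were *Csf1r* (−0.24) and *Cd68* (−0.05) with at least 4 *Csf1r* UMIs. A call in each library was lost in 28 values, under at least 1 alternative each for *Apoe*, *Bmp6*, *Cd74*, *Ctsb*, *Ctss*, *Id1*, *Mt3*, *Rac2*, *Tcirg1* and *Tnfrsf11a*. Causes of these changes were not tested. The depth of RA_7d, 302530 UMIs in 8 cells, limits every value of that library.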
